A study of Mus musculus with 16 samples.

Results

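The mitochondrial genome carries its own small set of genes, and the data described here are the read counts of those genes in the ventricles of mice whose cardiomyocytes lack Rbpms, an RNA-binding protein. Members were taken as the rows of the count table whose symbol begins with mt-, which gave 37 of 54108 rows with a gene symbol: 13 protein genes, 2 rRNA genes and 22 tRNA genes. All 37 lie on chromosome M in the GENCODE M21 annotation of GRCm38. The knockout group (cKO) was Myh6-Cre, Rbpms fl/fl and the control group was Rbpms fl/fl. Both groups carried the floxed Rbpms allele and the control group no Cre, so Cre itself and the loss of Rbpms cannot be told apart. Myh6-Cre acts in cardiomyocytes, and the other cells of the ventricle keep Rbpms. There were 4 libraries per genotype, all from mice of 8 weeks, 3 males and 1 female (replicate 3) in each genotype. Pooling of animals is not mentioned in the labels, and every p-value below reflects library-to-library spread only. The study's newborn samples were not analysed here.

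Heart muscle lives on oxidative phosphorylation, and mitochondrial DNA encodes a core of the machinery: subunits of complexes I, III and IV and of ATP synthase (complex V), with the rRNAs and tRNAs needed to make them inside the organelle. Each strand is transcribed as a long RNA by the polymerase Polrmt. Most mRNAs and both rRNAs are released when the tRNAs that lie between them are cut out ("tRNA punctuation"), and mRNAs and rRNAs then receive tails of adenosines, the rRNA tails being short. The libraries were made with a kit for polyadenylated mRNA, so a level here is the level of RNA that such a kit captures, and mature tRNAs, which carry no such tail and are shorter than usual fragments, are poorly sampled.

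Libraries held 20190334 to 24540433 counts. Rbpms itself fell to 38.8, 34.5, 27.1 and 26.9 CPM (depth-scaled counts, by the trimmed mean of M values) in the cKO libraries, against 190.5, 153.5, 193.2 and 101.6 CPM in the control libraries, a log2 fold change of -2.33 (standard error 0.20, edgeR adjusted p = 3.54e-05). Cardiomyocyte genes were abundant in both genotypes. Myh6, the alpha myosin heavy chain, averaged 15603 ± 1798 CPM in cKO and 19800 ± 2879 CPM in control libraries (SD, n = 4 each). Myl2, the ventricular myosin light chain, averaged 2696 ± 102 CPM in cKO and 2995 ± 278 CPM in control libraries.

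Shown here are 3 kinds of sequence from the genes described below. The first are the 3′ ends of both rRNAs, whose counts over the whole gene were lower in cKO ventricles. Reads at the ends and the tails themselves were not measured. The last 60 bases of each are shown, since the tail is added at this end:
mt-Rnr1 3′ end: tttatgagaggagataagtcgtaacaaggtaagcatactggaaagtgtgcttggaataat
mt-Rnr2 3′ end: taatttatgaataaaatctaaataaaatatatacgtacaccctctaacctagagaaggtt

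These are chrM:965-1024 and chrM:2616-2675 on the plus strand. The longest run of A inside mt-Rnr1 was 5 bases and inside mt-Rnr2 7 bases. The second kind are the tRNA genes that drew the most counts. All 3 below lie on the minus strand and are given in their own sense, 5′ to 3′, with the anticodon in capitals. The tRNA for proline was the only tRNA that passed the test between genotypes, and the other two, for asparagine and cysteine, are neighbours:
mt-Tp: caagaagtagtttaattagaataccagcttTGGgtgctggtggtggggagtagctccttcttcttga
mt-Tn: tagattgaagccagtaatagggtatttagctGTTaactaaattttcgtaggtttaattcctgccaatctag
mt-Tc: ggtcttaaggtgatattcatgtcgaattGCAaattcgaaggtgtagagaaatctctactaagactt

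Their positions are chrM:15356-15422 (mt-Tp), chrM:5089-5159 (mt-Tn) and chrM:5192-5257 (mt-Tc). The third kind are mitochondrial genes and their nuclear copies, since a stretch of chromosome 1 repeats part of the mitochondrial genome almost letter for letter. The start of mt-Co2 (chrM:7013-7072, plus strand) and of its copy Gm28661 (chr1:24615506-24615565, minus strand) cannot be told apart:
mt-Co2: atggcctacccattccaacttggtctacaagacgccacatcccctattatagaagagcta
Gm28661: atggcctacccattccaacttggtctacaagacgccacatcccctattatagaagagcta

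In mt-Nd3 (chrM:9459-9486, plus strand) the copy Gm28438 (chr1:24613092-24613119, minus strand) differs by the single substitution T3C, counted from 1 at the 5′ end of the gene, and the capital marks it:
mt-Nd3: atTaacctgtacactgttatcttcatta
Gm28438: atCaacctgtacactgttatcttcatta

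The part of a library taken by mitochondrial transcripts overlapped between genotypes. The mt- rows held 8.92%, 9.30%, 8.04% and 9.28% of the counts in the cKO libraries, against 10.06%, 9.16%, 8.95% and 11.77% in the control libraries. The means were 8.88% ± 0.59 in cKO and 9.99% ± 1.28 in control ventricles (SD, n = 4 each). The difference of -1.10 percentage points rested in good part on control replicate 4, without which it was -0.51. In whole ventricle, fewer cardiomyocytes and less mitochondrial RNA per cell cannot be told apart.

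Both rRNAs and the proline tRNA were lower in cKO ventricles, and no protein gene passed the test. Of the 37 genes, 23 passed the filter on low counts and were tested: all 13 protein genes, both rRNAs and 8 tRNAs. With edgeR's quasi-likelihood test and Benjamini-Hochberg adjustment over 16051 genes, mt-Rnr1, mt-Rnr2 and mt-Tp passed as lower in cKO ventricles (threshold 0.05), and no mt- gene was higher. That is 3 of 23, or 13%, where 19.3% of all tested genes passed in either direction and 9.64% were lower. The share of mt- genes called is thus near that of all genes. At an unadjusted p under 0.05 there were 5, all lower, a looser threshold that at least the same 19.3% of all tested genes passed. DESeq2 and limma-voom called none higher either. The log2 fold change was below 0 for 22 of the 23 under this scaling, but for only 9 when the summed mt- counts served as the library size. The median over all tested genes was 0.01 under the first scaling and 0.24 under the second.

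mt-Rnr1 (chrM:70-1024, plus strand) encodes the 12S rRNA of the small mitochondrial ribosomal subunit. Its level was 2210, 2184, 1672 and 2450 CPM in the cKO libraries, against 3276, 3023, 2836 and 4424 CPM in the control libraries. Every cKO library lay below every control library, and the lowest of each genotype was the female one. This is a log2 fold change of -0.67 (standard error 0.15, edgeR adjusted p = 0.0095), a level 0.628 times that of control ventricles. In males alone it was -0.65 (adjusted p = 0.0151).

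mt-Rnr2 (chrM:1094-2675, plus strand) encodes the 16S rRNA of the large subunit, and it is separated from mt-Rnr1 by the gene of the valine tRNA, mt-Tv. Its level was 5397, 5813, 4352 and 5601 CPM in the cKO libraries, against 7416, 7083, 6186 and 10296 CPM in the control libraries. The genotypes again did not overlap. The log2 fold change came to -0.55 (standard error 0.15, edgeR adjusted p = 0.0275). This call was lost without control replicate 1 (adjusted p = 0.0513), without cKO replicate 1 (0.0703) or without cKO replicate 3 (0.0797), with log2 fold changes of -0.57, -0.56 and -0.47.

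**Figure D1:**
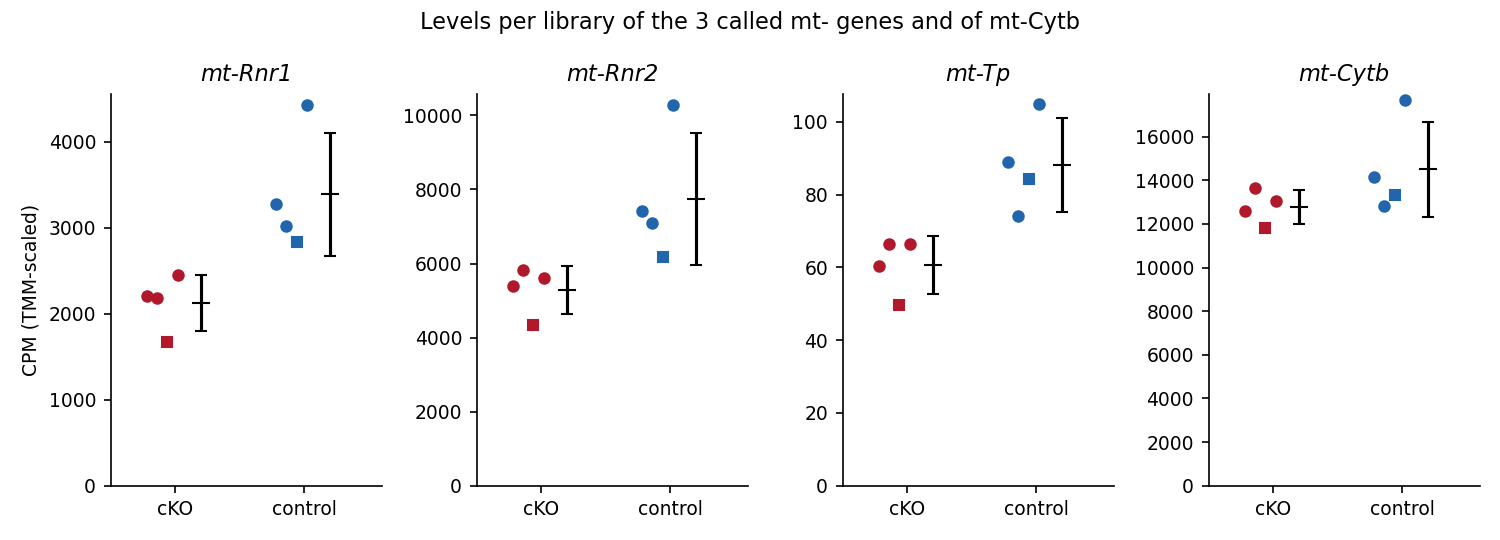
CPM per library (vertical axes start at 0) of the 3 mt- genes called lower in cKO ventricles and of mt-Cytb, cKO left (red) and control right (blue). Circles are males, squares the female library, and the bar is the mean with its SD (n = 4). The genotypes are apart for mt-Rnr1, mt-Rnr2 and mt-Tp and overlap for mt-Cytb, where control replicate 4 stands highest at 17684 CPM.

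Counted in reads, both rRNAs together made up 8.82%, 8.67%, 7.73% and 9.02% of mt- counts in the cKO libraries, against 10.47%, 11.17%, 9.88% and 11.31% in the control libraries. The difference of -2.15 percentage points is thus a shift of composition inside the mitochondrial transcripts, measured with no reference to nuclear genes. Protein genes had 10.7 ± 0.83 counts for each rRNA count in cKO libraries and 8.34 ± 0.59 in control libraries (SD, n = 4 each), without overlap. The proportion of the 2 rRNAs to each other did not separate the genotypes. mt-Rnr2 counts over mt-Rnr1 counts were 2.44, 2.66, 2.60 and 2.29 in the cKO libraries, against 2.26, 2.34, 2.18 and 2.33 in the control libraries.

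Reads of nuclear rRNA did not separate the genotypes. Rows annotated as nuclear rRNA, 98 genes in all, held 4463, 5262, 2099 and 4037 CPM (unscaled, over all counts with a symbol) in the cKO libraries, against 4374, 2852, 3153 and 3659 CPM in the control libraries. The ranges overlapped, and the cKO female library was the lowest of all 8, as it was for both mitochondrial rRNAs.

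None of the 13 protein genes passed the test in either direction, at an adjusted or at an unadjusted p under 0.05, and none did with DESeq2 or limma-voom. Their log2 fold changes ran from -0.31 to 0.00 with a median of -0.21, and edgeR's adjusted p from 0.194 to 0.995. Of the complex I subunits, mt-Nd5, which lies in the proton-pumping membrane arm, had 16464, 17554, 14732 and 16774 CPM in the cKO libraries, against 19174, 17079, 17053 and 24783 CPM in the control libraries. mt-Nd1, at the foot of that arm near the ubiquinone site, averaged 9587 ± 518 CPM in cKO and 11397 ± 1969 CPM in control libraries. mt-Nd1 had the lowest adjusted p of the 13 (log2 fold change -0.25, edgeR adjusted p = 0.194). Control libraries spread more than cKO libraries for both, with control replicate 4 the highest of all 8.

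mt-Nd2 and mt-Nd4, which like mt-Nd5 pump protons, showed the same arrangement. mt-Nd2 had 9660, 10509, 8928 and 10329 CPM in the cKO libraries, against 11137, 10024, 9768 and 14359 CPM in the control libraries. For mt-Nd4 the levels were 7445, 8134, 6877 and 7776 CPM in the cKO libraries, against 8642, 7568, 7676 and 10759 CPM in the control libraries. Both overlapped, with log2 fold changes of -0.20 (edgeR, adjusted p = 0.331 for mt-Nd2 and 0.312 for mt-Nd4).

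mt-Nd6, a subunit of the same arm, had 4593, 4862, 4242 and 4904 CPM in the cKO libraries, against 5405, 4777, 4834 and 6524 CPM in the control libraries (log2 fold change -0.21, edgeR adjusted p = 0.234). The small subunit mt-Nd4l had 19.3, 28.2, 11.7 and 19.9 CPM in the cKO libraries, against 22.7, 8.62, 17.1 and 30.5 CPM in the control libraries, the only log2 fold change at or above 0 (0.00, edgeR adjusted p = 0.995). For mt-Nd3 the levels were 8.94 to 13 CPM in cKO and 3.28 to 21.7 CPM in control libraries (-0.18, edgeR adjusted p = 0.802). All 3 overlapped, and the control libraries spanned the cKO range for mt-Nd4l and mt-Nd3.

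mt-Co1, the catalytic subunit of complex IV (cytochrome c oxidase), had 15394, 16682, 13984 and 15732 CPM in the cKO libraries, against 18217, 15570, 16559 and 22927 CPM in the control libraries. mt-Cytb, the haem-carrying subunit and the only one of complex III made in mitochondria, had 12613, 13625, 11798 and 13030 CPM in the cKO libraries, against 14155, 12815, 13325 and 17684 CPM in the control libraries. Both overlapped between genotypes, with log2 fold changes of -0.25 for mt-Co1 and -0.18 for mt-Cytb (edgeR, adjusted p = 0.227 and 0.327). The other mitochondrial subunits of complex IV are mt-Co2, which receives electrons from cytochrome c, and mt-Co3. mt-Co3 had 304, 347, 241 and 291 CPM in the cKO libraries, against 382, 252, 333 and 503 CPM in the control libraries (-0.31, edgeR adjusted p = 0.262). For mt-Co2 the averages were 108 ± 14.2 CPM in cKO and 129 ± 58.6 CPM in control libraries (-0.26, edgeR adjusted p = 0.577), and the counts behind them are given with the nuclear copies below.

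For ATP synthase, mt-Atp6 forms the proton channel of the membrane part and mt-Atp8 is a small subunit beside it. Their genes overlap by 43 bases, and the shared stretch (chrM:7927-7969, plus strand) holds the start codon of mt-Atp6 and the stop codon of mt-Atp8, both in capitals:
mt-Atp8 and mt-Atp6: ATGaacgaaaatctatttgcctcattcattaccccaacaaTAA

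Reads there belong to a shared mRNA and cannot be assigned to one of the genes. mt-Atp8 averaged 970 ± 37.4 CPM in cKO and 1103 ± 169 CPM in control libraries. For mt-Atp6 the averages were 1149 ± 61.3 CPM in cKO and 1351 ± 252 CPM in control libraries (SD, n = 4 each). Neither passed (edgeR, adjusted p = 0.259 for mt-Atp8 and 0.204 for mt-Atp6).

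Shares within mt- counts put the genes on a scale of their own. A share compares a gene with the other mitochondrial transcripts of the same library, so a library with more mitochondrial RNA overall does not raise it, but a lower share of one gene must raise others. Of 23 shares, 6 did not overlap between genotypes, 3 lower and 3 higher in cKO ventricles. Over all tested genes scaled in this way the groups did not overlap for 21.3%, with 2.18% lower and 19.1% higher. The 3 higher of 23 are no larger a share than that 19.1%. Each of the 6 reached the smallest p that an exact two-sided permutation test of 4 against 4 libraries allows, 0.0286. Any gene without overlap reaches it, so this p restates the lack of overlap and adds no further support. None of these p-values is adjusted for the 23 tests.

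Both rRNAs and mt-Tp were the lower ones. The mt-Rnr1 share was 2.56%, 2.37%, 2.14% and 2.75% in the cKO libraries, against 3.21%, 3.34%, 3.11% and 3.40% in the control libraries. For mt-Rnr2 it was 6.26%, 6.30%, 5.58% and 6.28% in the cKO libraries, against 7.27%, 7.83%, 6.77% and 7.91% in the control libraries. The female library had the lowest rRNA shares of its genotype in each case. mt-Tp held 0.0701%, 0.0719%, 0.0636% and 0.0745% in the cKO libraries, against 0.0872%, 0.0820%, 0.0924% and 0.0807% in the control libraries.

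Higher shares were found for mt-Cytb and for mt-Nd2 and mt-Nd4, which are pumping subunits of complex I. mt-Cytb took 14.62%, 14.77%, 15.14% and 14.61% in the cKO libraries, against 13.87%, 14.16%, 14.59% and 13.59% in the control libraries, so the gap between the genotypes was narrow. mt-Nd2 averaged 11.4% ± 0.16 in cKO and 10.9% ± 0.17 in control libraries. For mt-Nd4 the shares averaged 8.75% ± 0.090 in cKO and 8.38% ± 0.083 in control libraries (SD, n = 4 each). When the share was taken within the protein genes only, mt-Nd4 only just escaped overlap, at 9.491% to 9.68% in cKO and 9.35% to 9.485% in control libraries. On that measure mt-Nd2, mt-Cytb and all other protein genes overlapped. No share of all genes is given here for it, and mt-Nd4 lies inside a nuclear copy for 63.6% of its length.

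**Figure D2:**
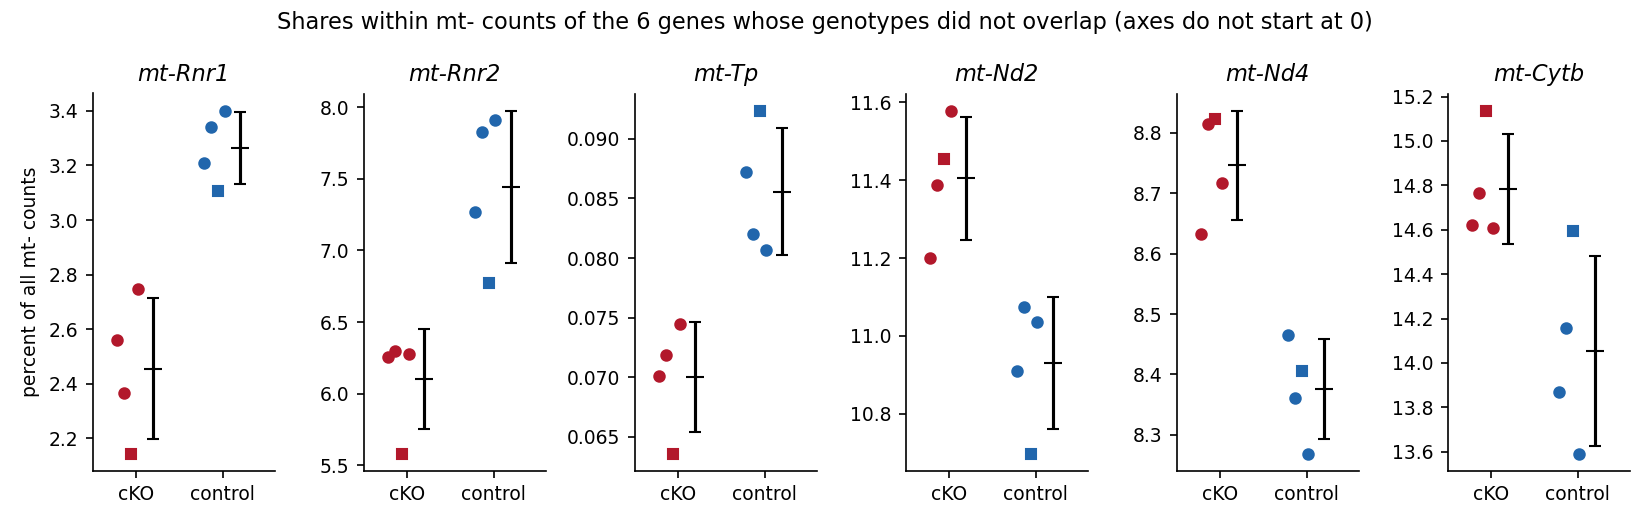
Percent of all mt- counts per library, cKO left (red) and control right (blue), for the 6 genes whose genotypes did not overlap. Circles are males, squares the female library, bars the mean with its SD (n = 4), and the axes do not start at 0. mt-Rnr1, mt-Rnr2 and mt-Tp lie lower in cKO libraries, and mt-Nd2, mt-Nd4 and mt-Cytb higher.

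The same question was put with edgeR, giving each library its summed mt- counts as library size. mt-Rnr1 stayed lower in cKO ventricles (log2 fold change -0.41, adjusted p = 0.0085), and so did mt-Rnr2 (-0.29, adjusted p = 0.0311). mt-Tp did not pass (-0.29, adjusted p = 0.171). These are 2 of 23, against 1.94% of all tested genes called lower on that scale. The scale moved the median log2 fold change of all tested genes to 0.24, which itself leaves fewer of them called lower. These shares are thus no measure of an excess. No mt- gene was called higher, where 12.1% of all tested genes were. The 13 protein genes lay between -0.04 and 0.29, with edgeR adjusted p-values of 0.449 to 0.940. For mt-Nd2, mt-Nd4 and mt-Cytb there is thus only the lack of overlap of their shares, and no adjusted test called them.

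**Figure D3:**
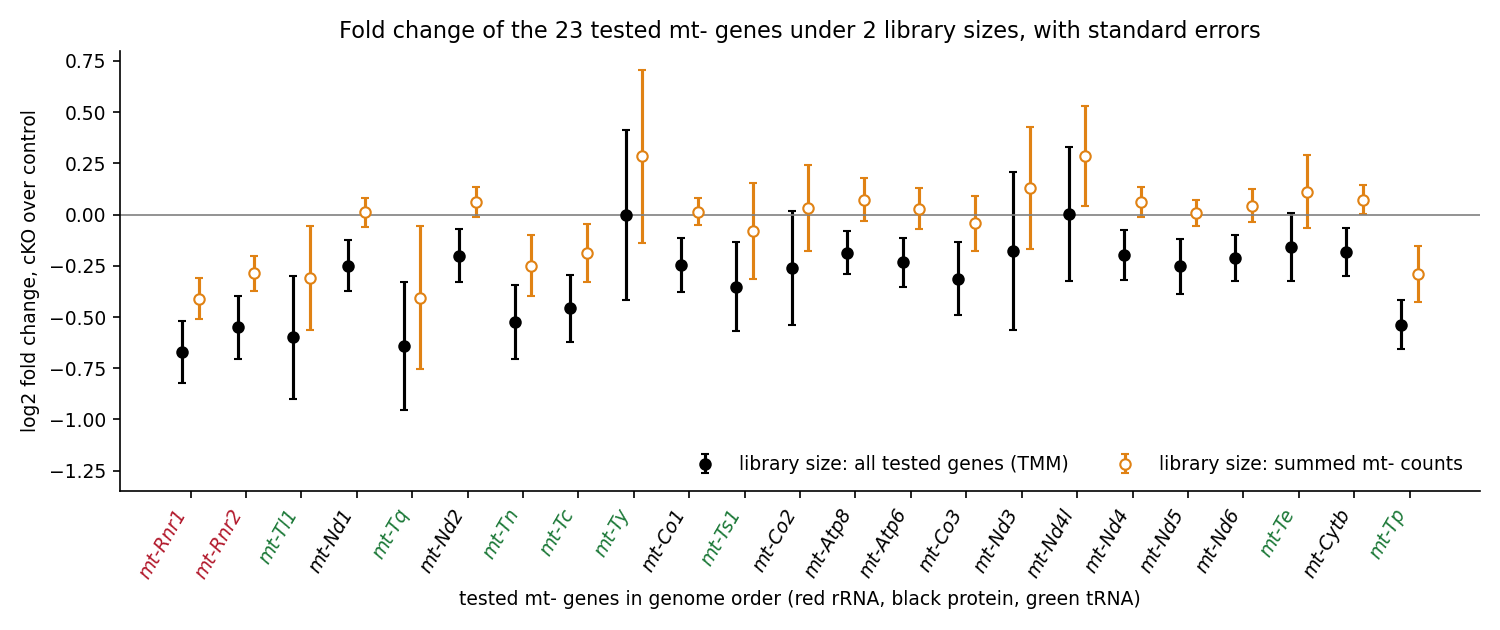
Log2 fold change, cKO over control, of the 23 tested mt- genes in genome order, with standard errors. Filled black points use library sizes over all tested genes and open orange points the summed mt- counts. The 3 called genes mt-Rnr1, mt-Rnr2 and mt-Tp lie at -0.67, -0.55 and -0.54 under the first scaling and -0.41, -0.29 and -0.29 under the second. The protein genes lie about 0 under the second, whose library sizes they largely make up.

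All 22 tRNA genes together, like the rRNAs, made up a lower part of mt- counts in cKO ventricles, 0.234%, 0.245%, 0.215% and 0.227% in the cKO libraries, against 0.263%, 0.263%, 0.258% and 0.288% in the control libraries. As a part of all library counts they held 0.0205% ± 0.0023 in cKO and 0.0269% ± 0.0049 in control libraries (SD, n = 4 each), also without overlap. Most of these counts came from mt-Tc, mt-Tp and mt-Tn, which are described in turn.

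The tRNA genes were unequally covered by strand. Of the 14 tRNA genes on the plus strand, the strand of 12 of the 13 mRNAs, 1 passed the filter on low counts, and all 14 summed to 976 counts over the 8 libraries, 912 of them from mt-Tl1. mt-Ts2, mt-Tl2 and mt-Tt had no count in any library. Of the 8 on the minus strand, 7 passed, and together they summed to 41557 counts. The strand setting of the authors' counting is not given in the sources used here, so reads of a minus-strand tRNA and of RNA from the opposite strand cannot be told apart. The same holds for mt-Nd6, the only protein gene on the minus strand.

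mt-Tp, the proline tRNA, had 60.4, 66.3, 49.6 and 66.4 CPM in the cKO libraries, against 89.0, 74.2, 84.3 and 105.0 CPM in the control libraries, without overlap. This gave a log2 fold change of -0.54 (standard error 0.12, edgeR adjusted p = 0.0084). It rested on 1253 to 2009 counts per library. mt-Tp is the last gene before the control region, the noncoding stretch that holds the promoters.

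mt-Tn and mt-Tc, the asparagine and cysteine tRNAs, flank the origin from which the light strand is replicated. mt-Tn averaged 45.3 ± 6.56 CPM in cKO and 65.2 ± 19.9 CPM in control libraries (log2 fold change -0.52, edgeR adjusted p = 0.0634). mt-Tc averaged 72.8 ± 9.86 CPM in cKO and 99.8 ± 27.4 CPM in control libraries (-0.46, edgeR adjusted p = 0.0746). Neither passed, and in both the cKO and control ranges overlapped.

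Of the remaining tested tRNAs, mt-Te (glutamate) averaged 8.85 ± 0.61 CPM in cKO and 9.90 ± 2.52 CPM in control libraries. mt-Ts1 (serine) averaged 5.42 ± 0.65 CPM in cKO and 6.92 ± 2.02 CPM in control libraries. mt-Tl1, the leucine tRNA that follows mt-Rnr2, averaged 4.12 ± 1.26 CPM in cKO and 6.26 ± 2.81 CPM in control libraries. None of the 3 passed (edgeR, adjusted p = 0.567 for mt-Te, 0.299 for mt-Ts1 and 0.200 for mt-Tl1). mt-Tq (glutamine) and mt-Ty (tyrosine) had 6 to 56 counts per library, and the standard errors of their log2 fold changes were 0.31 and 0.41. Their edgeR adjusted p-values were 0.184 for mt-Tq and 0.997 for mt-Ty.

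Levels per length were lowest for the 5 protein genes that lie almost wholly inside a close annotated nuclear copy. CPM per kilobase, with total counts as library size, were highest for mt-Cytb, at 11471 ± 612 in cKO and 12235 ± 1230 in control libraries (SD, n = 4 each). mt-Nd1, mt-Co1, mt-Nd2, mt-Nd5 and mt-Nd6 followed in that order in both genotypes. The ranges of neighbours in this order overlapped over these 6 genes, so it is no ranking. mt-Nd4, mt-Atp8, mt-Rnr2 and mt-Rnr1 came next. mt-Rnr2 stood at 3437 ± 408 per kilobase in cKO and 4718 ± 856 in control libraries. mt-Rnr1 stood at 2293 ± 360 in cKO and 3422 ± 548 in control libraries.

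Last in the order of both genotypes came 5 genes: mt-Atp6, mt-Co3, mt-Co2, mt-Nd4l and mt-Nd3. mt-Atp6 had 1734 ± 78.0 per kilobase in cKO and 1913 ± 256 in control libraries. mt-Nd3 had 33.7 ± 4.94 in cKO and 35.4 ± 19.5 in control libraries. These 5 are the genes that lie for 99% to 99.9% of their length inside an annotated nuclear copy of at least 99% identity. Their median over all libraries was 171 per kilobase, against 9960 for the 6 protein genes with no such copy annotated, mt-Atp8 among them.

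mt-Atp6 and mt-Atp8, which share their RNA, differed in level per length. mt-Atp8 had 4891 ± 165 per kilobase in cKO and 5223 ± 535 in control libraries, above mt-Atp6 in both. No row was an annotated copy of mt-Atp8, but its last 43 bases lie inside mt-Atp6, which Gm10925 copies. The protein gene before it, mt-Co2, is copied by Gm28661 on the same stretch of chromosome 1. The first bases of mt-Co2 and mt-Atp6 (chrM:7013 and chrM:7927) are as far apart as those of Gm28661 and Gm10925 (chr1:24615565 and chr1:24614651). The bases between these copies may thus repeat mt-Atp8, but their sequence was not compared. mt-Nd4 lies inside a copy for 63.6% of its length and mt-Co1 for 31.3%. Both stood among the genes without an annotated copy: mt-Co1 lay above mt-Nd2, mt-Nd5 and mt-Nd6, and mt-Nd4 lay above mt-Atp8. Where in each gene the reads fell was not measured. If all counts came from the bases outside the copy, mean levels over all libraries would be 16063 per kilobase for mt-Nd4 and 15796 for mt-Co1. Only under that assumption would both lie above every gene with no annotated copy. How the authors' counting treated reads with several alignments is not given in the sources used here. The levels of the 7 genes with such a copy are therefore uncertain, and so is that of mt-Atp8 if it is copied too. The part of the copies in the order of levels was not tested.

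**Figure D4:**
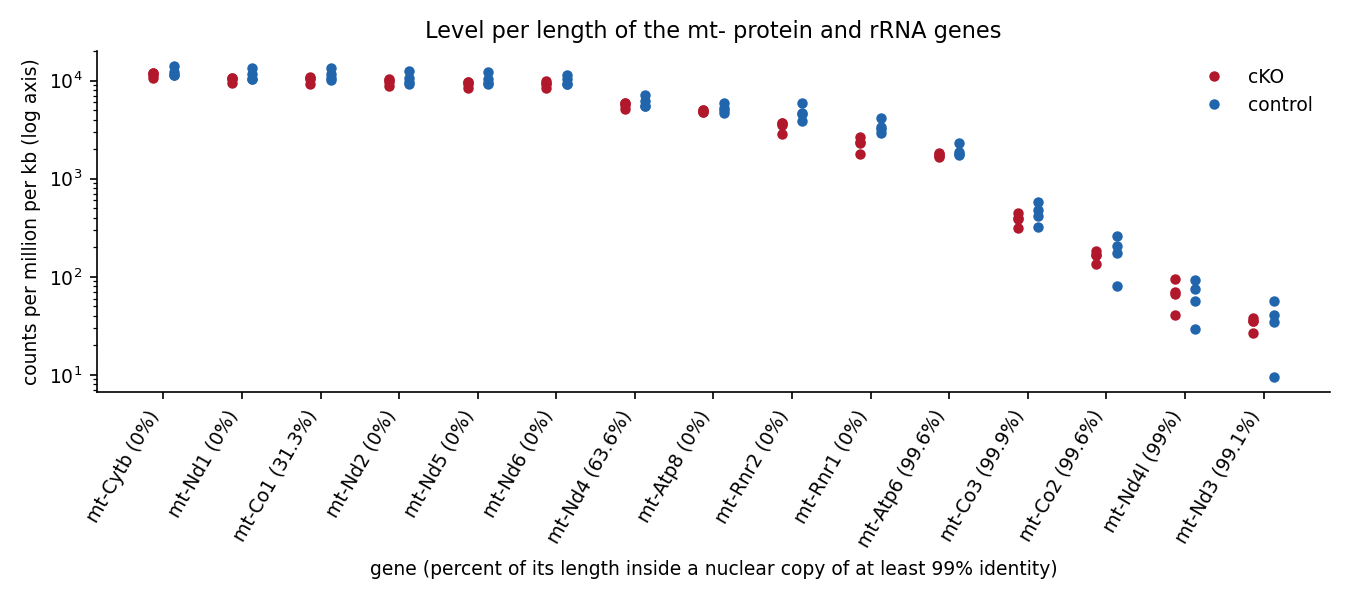
CPM per kilobase (log axis) of the 13 protein genes and 2 rRNAs in each library, cKO left (red) and control right (blue) at each gene, ordered by mean level. The percent of each gene's length inside an annotated nuclear copy of at least 99% identity is given beside its name. The 5 genes at 99% or more are the 5 lowest.

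The copies themselves were 11 annotated pseudogene rows, 7 of them side by side on chromosome 1 (chr1:24611535-24616197, minus strand), 3 on chromosome 2 and 1 on chromosome 13. In sum they held 0.30% ± 0.018 as many counts as the mt- rows in cKO and 0.36% ± 0.023 in control libraries (SD, n = 4 each). Gm28438, the copy of mt-Nd3 shown above, stood out with 14284 counts over the 8 libraries, 656% of those of mt-Nd3. Gm10222 had 81.9% as many counts as mt-Nd4l, of which it repeats 294 bases without a difference. Gm13340, the copy of mt-Co1 on chromosome 2, had 13998 counts, 0.463% of those of mt-Co1. Next by counts were Gm10925, the copy of mt-Atp6 (4797 counts), Gm28437 of mt-Co3 (4347) and Gm29216 of mt-Co1 (3528). Gm10222 and Gm28661 rank lower and are named after their values were seen.

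Control replicate 2 had few counts of 4 of the 5 genes that lie almost wholly inside an annotated copy. mt-Nd3 had 288, 296, 226 and 275 counts in the cKO libraries, against 319, 67, 292 and 416 counts in the control libraries. mt-Co2 had 2651, 2803, 2243 and 2540 counts in the cKO libraries, against 3165, 1115, 2904 and 3754 counts in the control libraries. The second control value is the lowest of both genes. In that library mt-Co3 had 5150 and mt-Nd4l 176 counts, again the lowest of all 8. This was the shallowest library, and per kilobase mt-Co3 was at 318 in cKO replicate 3 and at 326 in control replicate 2, while the other 3 genes had their lowest level in control replicate 2. Other genes with copies did not stand out in this way. mt-Atp6 stood at 1734 per kilobase in control replicate 2, beside 1769 in control replicate 3 and 1862 in control replicate 1. mt-Co1 at 10201 and mt-Nd4 at 5559 per kilobase in that library lay inside the range of the other 7.

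The copies of these 4 genes did not move one way in that library. Gm28661, a copy of mt-Co2, had 6.38, 6.998, 5.30 and 6.88 CPM (unscaled) in the cKO libraries, against 7.50, 13.5, 8.01 and 10.7 CPM in the control libraries, so control replicate 2 was the highest. Gm28437, the copy of mt-Co3, had 20.9, 29.9, 16.1 and 23.6 CPM in the cKO libraries, against 25.3, 19.2, 28.4 and 29.4 CPM in the control libraries, with control replicate 2 the lowest control. The copies Gm28438 of mt-Nd3, Gm10222 of mt-Nd4l and Gm13341 of mt-Co2 had 82.5, 16.1 and 18.0 CPM in control replicate 2, inside the range of the other control libraries. Without control replicate 2, mt-Co2 passed the test as lower in cKO ventricles (edgeR, adjusted p = 0.0492), and with it the adjusted p was 0.577.

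Nuclear genes that serve the mitochondrial genome and its proteins were often lower in cKO ventricles. Over 194 tested genes in 11 lists, 93 were lower and 1 higher in cKO ventricles, with a median log2 fold change of -0.30, against 0.01 over all tested genes and 9.64% of them called lower. The lists were chosen with earlier results of these data known, so their direction is a description. With total counts as library size 60 were lower, where 1021 of all 16051 tested genes were. With summed mt- counts as library size 2 were lower, where 1.94% of all tested genes were. Those 2 of 194 are no larger a share than that.

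Of the genes for mitochondrial transcription, 2 of 12 were lower and none higher (median log2 fold change -0.21). Polrmt, the RNA polymerase, averaged 21.8 ± 1.38 CPM in cKO and 29.1 ± 4.87 CPM in control libraries (log2 fold change -0.42, edgeR adjusted p = 0.0281). The other was Twnk, the mtDNA helicase, at 37.0 ± 0.69 CPM in cKO and 48.7 ± 2.46 CPM in control libraries (-0.39, edgeR adjusted p = 0.0023). Twnk stands in the replication list too, so Polrmt was the only called gene of the transcription list alone. Of 14 genes for mtDNA replication and packaging, 2 were lower, Twnk and the nuclease gene Mgme1 (-0.68, edgeR adjusted p = 0.0384), with a list median of -0.10.

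RNA processing and decay had 10 of 21 genes lower (median -0.23). Lrpprc, which stabilises mitochondrial mRNAs, averaged 236 ± 7.96 CPM in cKO and 333 ± 21.3 CPM in control libraries (log2 fold change -0.49, edgeR adjusted p = 0.000798). Hsd17b10, a subunit of the enzyme that cuts the 5′ ends of tRNAs, had -0.58 (edgeR adjusted p = 0.0020). Fastkd2, an RNA-binding protein known for its role with the 16S rRNA, had -0.43 (edgeR adjusted p = 0.0020), and Fastkd1 -0.52 (0.000836).

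Enzymes that modify the tRNAs and rRNAs had 6 of 22 lower and 1 higher (median -0.20). Nsun4, which methylates the 12S rRNA, had 26.6 to 29.1 CPM in cKO libraries and 41.3 to 44.4 CPM in control libraries, a log2 fold change of -0.63 (edgeR, adjusted p = 0.000167). Mrm1, a methyltransferase of the 16S rRNA, had 13.1 to 16.7 CPM in cKO libraries and 24.6 to 28.1 CPM in control libraries (-0.74, edgeR adjusted p = 0.000450). Another of the 16S methyltransferases, Mrm3, had -0.53 (edgeR adjusted p = 0.0206), and Mettl17, needed for assembly of the small ribosomal subunit, had -0.47 (0.0137). The gene that was higher was Trub2, a pseudouridine synthase, at 31.7 ± 0.72 CPM in cKO and 24.8 ± 3.69 CPM in control libraries (0.36, edgeR adjusted p = 0.0306). It is named because it was the sole exception. Its call was lost in males alone. When single libraries were left out, a gene of this list was called higher only without control replicate 4.

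Translation factors had 5 of 16 lower (median -0.26), led by Mrrf, the ribosome recycling factor, at 31.3 ± 0.97 CPM in cKO and 48.7 ± 1.92 CPM in control libraries (log2 fold change -0.64, edgeR adjusted p = 0.000145). The next 3 were Oxa1l, the insertase of the inner membrane (-0.58), Tufm, the elongation factor Tu (-0.50), and Ptcd3, a protein of the small subunit (-0.40). Aminoacyl-tRNA synthetases and the amidotransferase had 10 of 22 lower (median -0.31), led by Vars2, for valine, at 15.7 ± 0.74 CPM in cKO and 23.4 ± 0.48 CPM in control libraries (log2 fold change -0.57, edgeR adjusted p = 0.000598). Next were Fars2, for phenylalanine (-0.65), Qrsl1, a subunit of the amidotransferase (-0.48), and Sars2, for serine (-0.64).

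The nuclear partners of the mt- proteins were lower as well. Of 76 tested nuclear subunits of the 4 complexes, 54 were lower and none higher in edgeR (67 and 1 at an unadjusted p under 0.05), with a median log2 fold change of -0.35. At the adjusted threshold 9.64% of all tested genes were lower, and no such share is given here for the unadjusted one. Complex I had 29 of 36 lower, complex III 7 of 9, complex IV 8 of 14 and ATP synthase 10 of 17. Ndufb10 of complex I averaged 264 ± 13.4 CPM in cKO and 369 ± 19.2 CPM in control libraries (-0.48). Uqcrc1, a core subunit of complex III, averaged 579 ± 58.1 CPM in cKO and 873 ± 101 CPM in control libraries (-0.59).

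Cox5b of complex IV averaged 193 ± 9.89 CPM in cKO and 260 ± 9.24 CPM in control libraries (log2 fold change -0.43). Atp5a1, the alpha subunit of ATP synthase, averaged 2497 ± 174 CPM in cKO and 3635 ± 324 CPM in control libraries (-0.54). All 4 of these subunits passed (edgeR, adjusted p = 0.000896 for Ndufb10, 0.0023 for Uqcrc1, 0.0015 for Cox5b and 0.0022 for Atp5a1). The 13 mt- protein genes had a median of -0.21 and none was called. Whether nuclear and mitochondrial subunits differ in their change was not tested.

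Of 13 markers of mitochondrial mass 5 were lower (median -0.27). Cs, citrate synthase of the matrix, averaged 1304 ± 154 CPM in cKO and 1854 ± 158 CPM in control libraries (log2 fold change -0.51, edgeR adjusted p = 0.0057). Vdac3, an outer-membrane channel, had -0.46 (edgeR adjusted p = 0.0022).

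**Figure D5:**
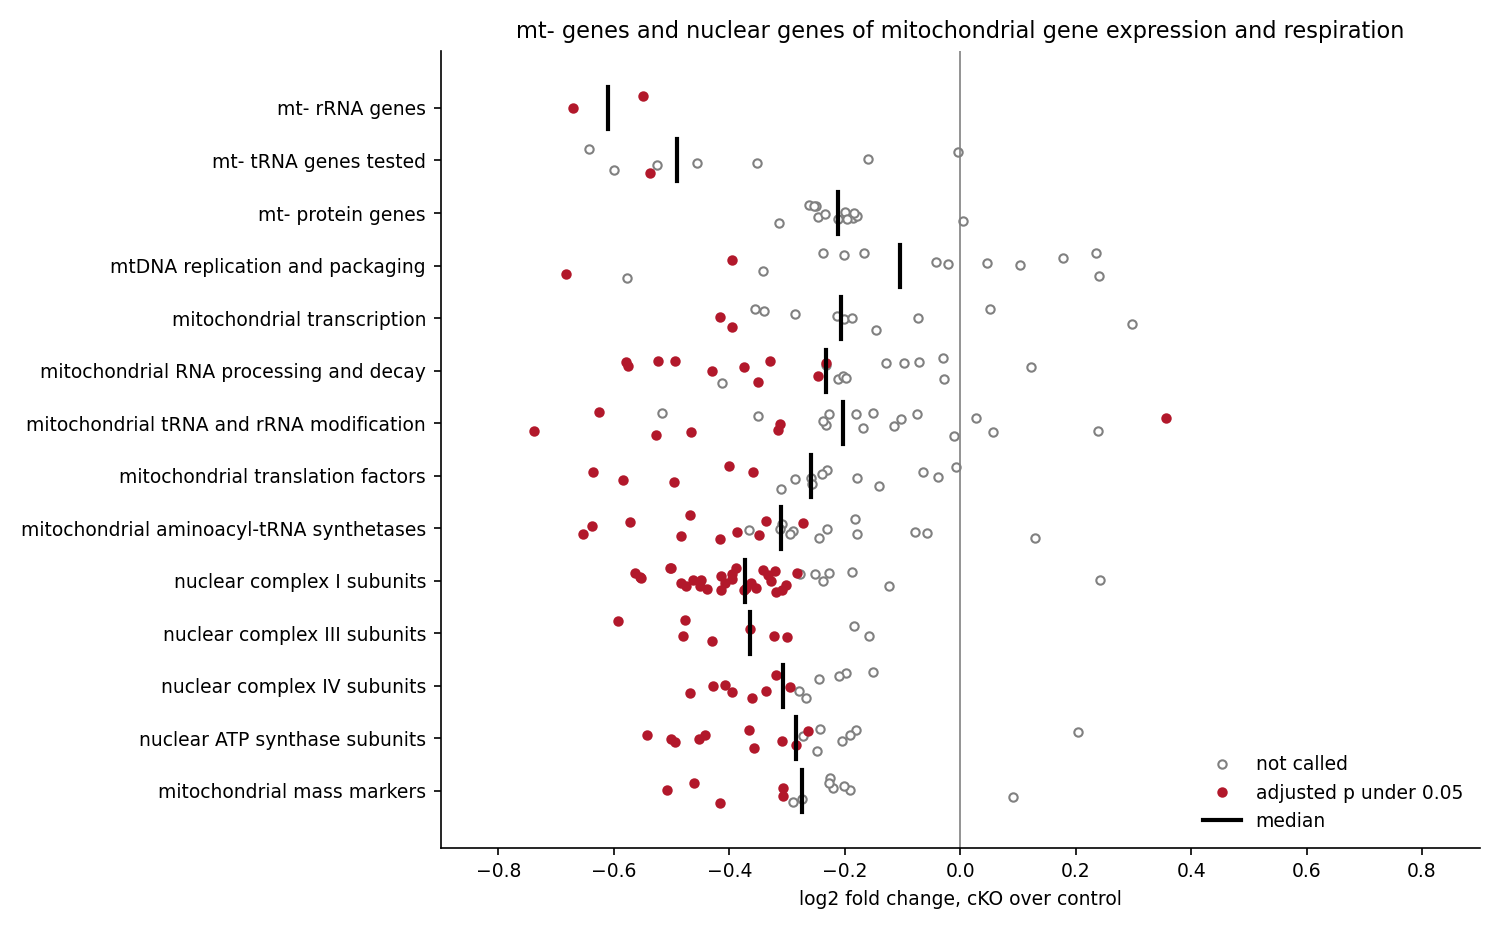
Log2 fold change, cKO over control, of each tested mt- gene by class and of the nuclear genes by list. Red points passed an adjusted p under 0.05 in edgeR, open points did not, and black bars are medians. The mt- rRNAs have the lowest median at -0.61, the mt- protein genes lie close together around -0.21, and the nuclear complexes have medians of -0.28 to -0.37.

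Markers of some cell types differed between genotypes, while cell proportions themselves were not measured. Summed CPM of 10 cardiomyocyte markers were 40150, 42650, 36740 and 40830 in the cKO libraries, against 49750, 41610, 47880 and 54080 in the control libraries, with 2 of the 10 lower (Ryr2 and Tnni3), none higher and a median log2 fold change of -0.20. All 10 fibroblast markers were higher in cKO ventricles, with a median of 1.05, and summed to 5434 to 6335 CPM in cKO and 2603 to 3518 CPM in control libraries. Of 10 macrophage markers 2 were higher (Mrc1 and Lyz2), and all 10 summed to 328 to 369 CPM in cKO and 200 to 326 CPM in control libraries. Over all tested genes 9.64% were higher and 9.64% lower, so 2 of 10 is a small excess at most.

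Of 10 endothelial markers none passed in edgeR, at an adjusted or an unadjusted p under 0.05. Among 9 smooth muscle and pericyte markers Cspg4 was higher and Kcnj8 lower, near the share of all tested genes in each direction (9.64%). None of the 5 tested erythroid markers passed either. No tested marker was at 0 in any library. The part of these cells in the levels of the mt- genes was not tested.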

How the data were processed

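Polyadenylated RNA of mouse ventricles was sequenced with a stranded mRNA kit, per the labels' protocols. The deposited table holds raw counts per gene symbol, made by the authors before deposit. Tools listed without a role in the submitters' processing notes are HISAT2 2.0.4 and featureCounts 1.6.0, FastQC 0.11.4 and edgeR 3.30.3, and the builds are GRCm38 (mm10). Which annotation release and strand setting were used, and how multiply aligned reads were counted, is not given in the sources used here. Of 54132 rows, 24 carry a number in place of a symbol (0.115% to 0.132% of counts) and were left out.

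The test was edgeR 4.0.16 in R 4.3.3 (quasi-likelihood, genotype as the only term, TMM, filterByExpr defaults, Benjamini-Hochberg over 16051 genes, adjusted p under 0.05), checked on simulated counts. A standard error is the size of the log2 fold change over the square root of F. Shares are counts over summed mt- counts, with exact permutation of the 8 libraries. Levels per kilobase use total counts and GENCODE M21 lengths. Nuclear copies were GENCODE transcripts matching mt- transcripts in BLAST 2.17.0 at 95% identity or more over at least 100 bases, since no genome sequence was used here. Sequences are from the same GENCODE transcripts.

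All mt- genes that passed the filter are named. From each nuclear list up to 4 members are named, by smallest adjusted p. The members and lists were chosen with earlier results of these data known. Libraries of a genotype were not alike (chi-square per degree of freedom 7.89 to 33.7), and no label pairs libraries across genotypes. Alternatives were other scalings, filters, tests (DESeq2 1.42.0, limma 3.58.1) and subsets of libraries.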

Additional observations from a re-analysis of the deposited data

Results flagged for a closer look

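Within groups of 4 libraries, a library was singled out by Dixon's test at the 95% level, that is where its gap to the nearest other library took most of the range of its group. Chance marks about 1 group in 20, and there were 130 groups. The cKO female library (replicate 3) had an mt-Rnr2 share of 5.583% of mt- counts, against 6.257% to 6.30% in the other cKO libraries. The same library had 8817 CPM of mt-Nd1, against 9780 to 9939 CPM in the other cKO libraries. Control replicate 4 had an mt-Nd6 share of 5.014%, against 5.278% to 5.295% in the other control libraries. The minus-strand tRNA genes together held 0.28% of mt- counts in control replicate 4, against 0.2531% to 0.2576% in the other control libraries.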

How the results depend on the processing

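The 3 mt- genes called lower became 5 with no filter, with the DESeq2 Wald test and with sex as a covariate, where mt-Tn and mt-Tc joined, and 2 to 6 when single libraries were left out (6 without control replicate 2). mt-Rnr1 passed in 21 of 21 whole-table fits (adjusted p 1.50e-05 to 0.0406), mt-Rnr2 in 17 and mt-Tp in 20, failing only with summed mt- counts as library size. mt-Rnr2 also failed without control replicates 2 and 4 (log2 fold change -0.37, adjusted p = 0.100), a choice made after seeing the data. No mt- gene was called higher in any fit, and no direction of a called gene turned. The rRNA share differed by -2.88 percentage points with genes free of an annotated 99% copy as denominator, also chosen after seeing the data. Listed nuclear genes called lower were 93, against 60 with total counts, 2 with summed mt- counts, 56 in males, 51 at an adjusted p under 0.01, 59 without control replicates 2 and 4, and 61 (without cKO replicate 1) to 93 with single libraries left out. Of all tested genes 1547 were lower in the main fit, 1021 with total counts and 312 with summed mt- counts. In males 1166 were, and 1093 both without control replicates 2 and 4 and without cKO replicate 1. From 16051 to 16933 genes were tested in these fits. No such number is given here for an adjusted p under 0.01. The 1 called higher was lost in males, at an adjusted p under 0.01 and in some fits without a single library (0 to 1). No paired analysis was possible because the labels give no replicate numbers shared between genotypes. Few counts limit mt-Tq and mt-Ty most among the tested genes (6 to 56 per library). The 14 tRNAs under the filter on low counts, 13 of them on the plus strand, were not compared, and the cause of their low counts was not tested.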
